A study of Mus musculus with 82 samples.

Results

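The liver of male C57BL/6J mice (B6) was hybridised on 2 two-colour arrays, a forward array and its dye swap, against a common reference of day 17.5 B6 embryo RNA (the embryo mix). These 2 arrays, of 82 in the series, are described here. They were set beside the 28 male arrays of the 13 BXD strains that have both orientations against the embryo mix. Each value is a log2 ratio of liver to embryo mix, the swapped array was turned by -1, and the orientations were averaged to 1 value per strain. This gave 14 values for each of 21915 features, 3439 of them with a gene name. The B6 value was placed among the 13 strain values and compared with 6 arrays on which B6 liver met DBA/2J (D2) liver directly, 3 labelled male and 3 labelled female.

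All groups are adult liver of inbred mice with no treatment. The parental strains are B6 and D2, and the BXD strains (2, 5, 6, 11, 12, 15, 16, 18, 19, 21, 28, 31 and 32) are recombinant inbred lines derived from them. The series description gives an age of 10 to 20 weeks and 3 unfasted males per strain, while the labels hold both sexes. Any pooling of mice was not given in the sources used here. Because the B6 pair is a single RNA sample, B6 has no replicate of its own, and p-values treat it as varying like a strain.

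A recombinant inbred line is bred from the F2 of 2 parental strains by repeated brother-sister mating until each chromosome is a fixed mosaic of parental segments. At each locus a line carries the B6 or the D2 allele. Where a transcript is set by a single nearby variant, the lines are expected to fall at the level of either parent. Where several loci act, lines can lie between the parents or beyond them. The adult liver makes most plasma proteins, clears drugs and steroids, and runs gluconeogenesis, urea synthesis and bile acid synthesis. Many of its transcripts depend on sex, feeding, time of day and inflammation.

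Checks of the labels came first. On the B6 pair the hepatocyte genes had a median log2 ratio of 3.70 on the lower array and 4.10 on the higher, and the embryonic genes -2.52 and -2.15. This contrast also set the likely direction of every ratio, channel 2 over channel 1, since both channels carry the same dye label. Eif2s3y, a Y-linked translation factor gene, read 0.81 in B6, inside the male strain range of 0.37 to 1.09 and above the highest female strain mean of 0.10. The female-biased cytochrome genes Cyp2b9 (0.26) and Cyp2b13 (0.16) were also inside the male range and below the lowest female strain means of 2.46 and 1.79. By these genes the B6 liver read as male, as labelled. The Y-linked gene Uty (1.31) was inside both the male (0.73 to 2.25) and the female strain range (0.36 to 1.84). Elovl3 (0.765), Fmo1 (1.72) and Fmo2 (-0.48) were outside the male range and inside the female range. Pancreas genes Prss2 and Reg1 lay inside the strain range, at -1.86 and 0.47.

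The direct arrays went against a label. On the 3 arrays labelled female B6 against female D2, Eif2s3y read 0.74, 0.69 and 0.56 (log2 B6 over D2) and the male-biased oxysterol hydroxylase gene Cyp7b1 read 2.67, 2.47 and 2.60. The female-biased cytochrome genes Cyp2b9 (-2.78, -2.92 and -2.52) and Cyp2b13 (-2.44, -2.64 and -2.86) were low. Of 7 male-biased genes 6 were above 0 on all 3 of these arrays and 1, Cspg5, below. Of 12 female-biased genes 9 were below 0 on all 3, and 3 (Lpl, Fmo2 and Ntrk2) were above. The Y-linked genes were above 0 in 2 of 2, and of 2 X-linked genes, Eif2s3x and Ddx3x, 1 was below 0 on all 3. By most of these genes the arrays read like male liver in the B6 channel and female liver in the D2 channel. With the direction of the direct arrays turned, they would read as female B6 against male D2. On the 3 labelled male arrays Cyp2b9 read 0.14, -0.26 and -0.18 and Cyp7b1 read 0.31, -0.09 and -0.07. The labelled female arrays were therefore kept apart, and the direct check below uses the labelled male arrays. The labels do not say whether those arrays hold the same B6 extract as the 2 arrays against the embryo mix.

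**Figure D1:**
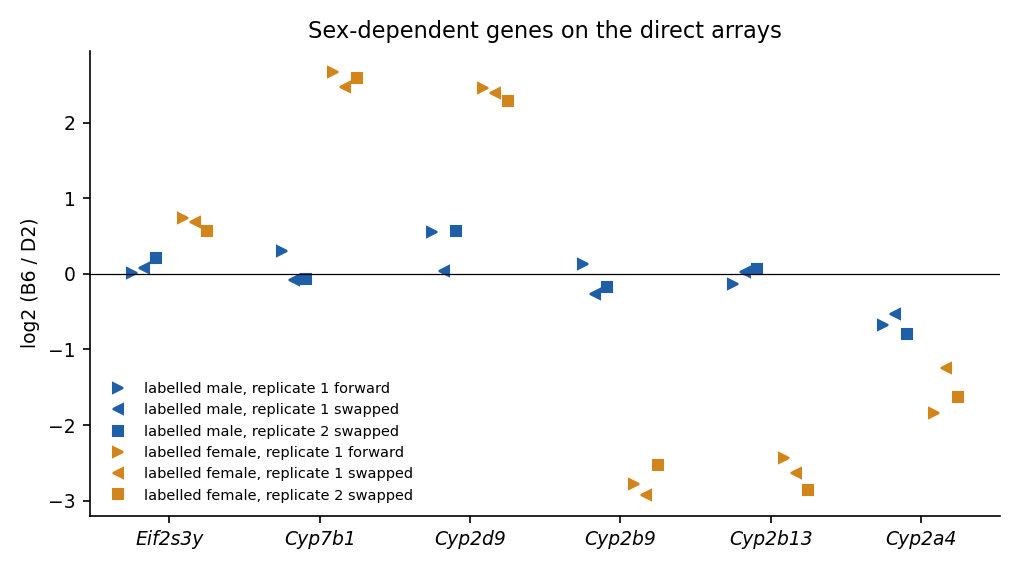
Log2 ratio of B6 to D2 for 6 sex-dependent genes on the 6 direct arrays (blue, labelled male; orange, labelled female; triangles point right for forward and left for swapped arrays of replicate 1, squares are replicate 2). The orange Cyp2b9 and Cyp2b13 points lie far below 0 and the orange Cyp7b1 and Cyp2d9 points far above it, while the blue Cyp2b9 points stay between -0.26 and 0.14.

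The B6 liver mostly lay among its recombinant relatives. For 18650 features (85.1%) the B6 mean was inside the range of the 13 strains, above all of them for 1938 (8.84%) and below all of them for 1327 (6.06%). The median absolute difference from the strain mean was 0.12 log2, and the median SD over strains was 0.19. A difference of at least 1 log2 was seen for 176 features (0.803%), 136 higher and 40 lower in B6. B6 was no more often at an extreme than several strains: a strain was the highest or lowest of the 14 for 4.32% (BXD5) to 27.9% (BXD21) of features, and B6 for 14.9%. BXD21, BXD28 and BXD32 were at an extreme for over 25% of features each. The lowest correlation between orientations was that of BXD28, at 0.731, against 0.855 for B6.

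**Figure D2:**
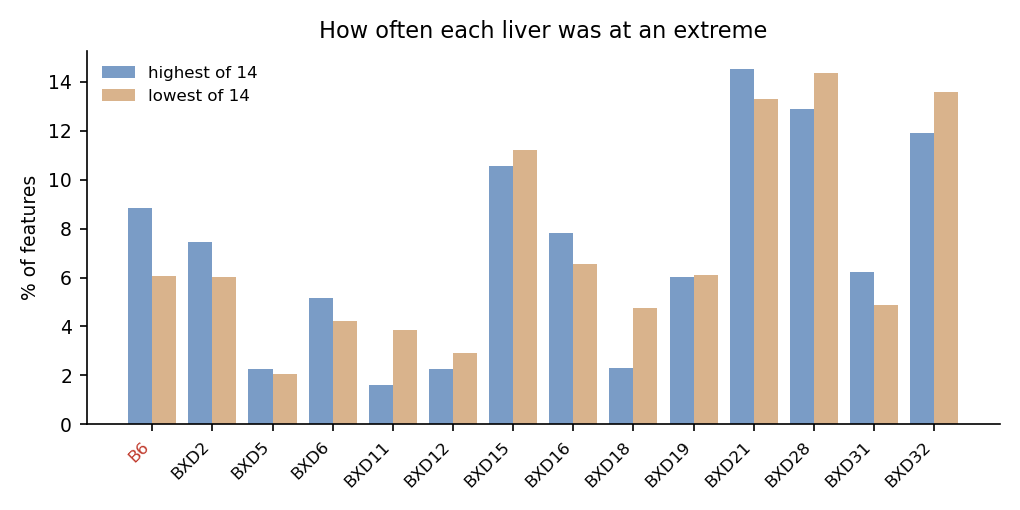
Percent of the 21915 features for which each liver had the highest (blue bars) or lowest (tan bars) of the 14 values. B6 was highest for 8.84% and lowest for 6.06%, and BXD21, BXD28 and BXD32 were at an extreme more often.

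Across all features, limma with Benjamini-Hochberg adjustment called 4 of 21915 (0.0183%), 3 higher and 1 lower in B6, and none of them has a gene name here. There were 1322 features (6.03%) at an unadjusted p under 0.05. The count was 1 without BXD5, 2 without BXD6 or without BXD11, and 10 without BXD32. In these 4 the B6 orientations were far apart, by 1.17 to 3.39 log2, where the median gap of B6 over all features was 0.243. The probe named for the RIKEN clone 6030450P07, for example, read 0.11 on the forward and -3.28 on the swapped B6 array, against 0.24 to 0.81 in the strains (adjusted p = 3.563e-05, limma). The probe PX00101D10 read -0.44 and 1.75 against -0.97 to -0.39 (adjusted p = 0.02325, limma). Only 1 of the 4 was outside the strain range in both orientations. On the labelled female direct arrays 2 of the 4 had the same sign as the difference from the strains. On the labelled male pair mean 4 of 4 had it, by 0.06 to 0.25 log2, but only 3, 3 and 2 of the 4 on the 3 labelled male arrays taken singly. A permutation test for a single gene cannot help here, since 1 value against 13 cannot give an exact p below 0.0714.

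A stricter placement asked for the B6 value to lie beyond all 13 strains on the forward arrays and, on the same side, on the swapped arrays. It held for 524 features (2.39%), 341 higher (1.56%) and 183 lower (0.835%) in B6, 82 and 25 of them named. That split depends on scaling: with arrays scaled to a common median absolute deviation it was 255 higher and 270 lower, with quantile normalization 306 and 335, and with slope scaling 337 and 259. BXD2 decides part of the count, since without it 1065 features were outside, 834 of them higher in B6. Of the 341 higher features, 82 were above 0 on all 3 labelled male direct arrays, as were 14.7% of all features. Of the 183 lower features, 46 were below 0 on all 3, as were 13.2% of all. The placement compared each B6 array with strain values of its own orientation, whereas the strain ranges given in the text are of means over orientations. A gene outside by this rule can thus have a B6 array inside its printed range. Both arrays can also lie beyond that range in a gene that is not outside by the rule.

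The side on which B6 lay followed the level of the feature. With the values as deposited, features rich in the embryo read less negative in B6 than in the strains. Over the 398 features with a strain mean between -3 and -2 the median difference was 0.41, and 90.5% of them were higher in B6. Over the 185 features below -3 it was 0.42. In both bins all 13 strains, each compared with the others, had a smaller median (highest 0.15 and 0.17). For the 10638 features between 0 and 1 the B6 median was -0.09, below all 13 strains, whereas above 3 it was 0.00, with 6 strains below it. B6 also had the smallest slope on the strain mean, 0.828 against 0.930 to 1.12 for the strains, and the smallest SD over features, 0.748 against 0.838 to 1.003. After slope scaling the median of the -3 to -2 bin was 0.01 and that of the bin above 3 was 0.74. With quantile normalization they were -0.01 and 0.08. Of the 341 features outside on the high side, 299 had a strain mean below 0, as did 16 of the 183 on the low side. The 4 bins below 0 held 185, 398, 1519 and 7801 of the 21915 features. What lowers the spread of the B6 ratios was not tested.

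**Figure D3:**
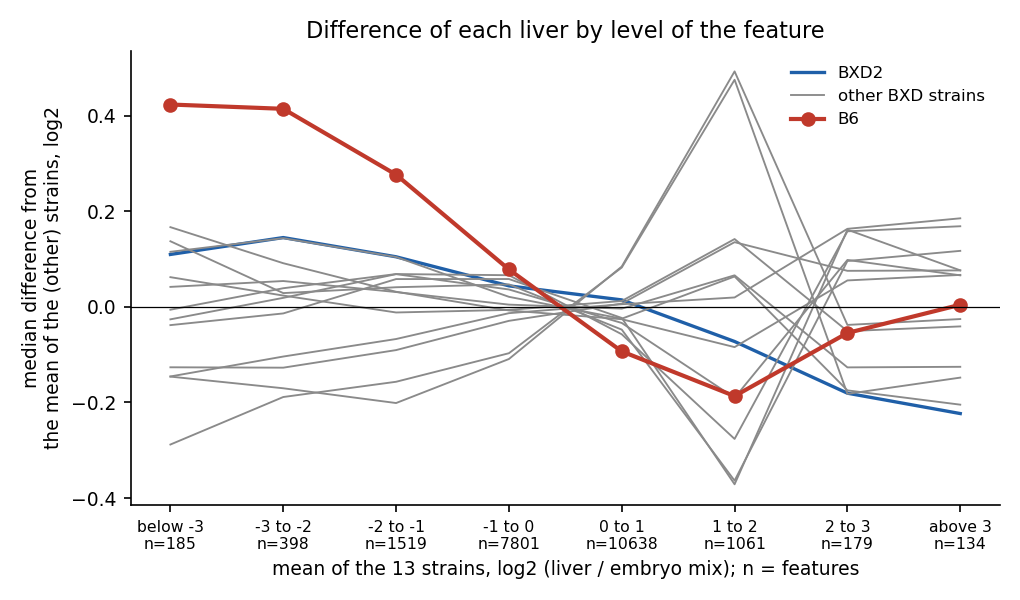
Median log2 difference from the mean of the strains (for a strain, the other 12) in 8 bins of the mean of the 13 strains, with the number of features in each bin on the x axis. The B6 line (red) starts at 0.42 in the lowest bin, above every strain (grey, BXD2 blue), and lies at -0.09 in the bin from 0 to 1.

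Named genes above the strain range were mostly transcripts with less signal in liver than in the embryo mix, and B6 read less far below 0 than the strains did. The largest 12 named differences outside the range in both orientations were taken, and 11 of these genes are described. None passed the adjusted test (limma adjusted p = 0.056 to 0.6926). All 12 had an unadjusted limma p under 0.05, as did 6.03% of all features. Each rests on 1 probe. Slc46a2, a solute carrier first described in thymic stroma, read -0.85 on both B6 arrays and from -4.04 to -1.93, with a median of -2.71, in the strains. B6 stood 1.99 ± 0.58 log2 (SE) above the strain mean, 3.97-fold. Ptx3, a long pentraxin of innate immunity, read -2.29 and -1.95 against -5.29 to -3.29 (median -3.90), a difference of 1.90 ± 0.56. Apobec2, a muscle member of the cytidine deaminase family, read -1.49 and -1.29 against -3.51 to -2.29, a difference of 1.46. These genes were chosen for lying beyond the strains on both B6 arrays, so neither the lack of overlap nor the unadjusted p-values add evidence.

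The next genes, all with less signal in liver than in the mix, differed by 0.94 to 1.24. Cdh15, the cadherin of muscle precursors, differed by 1.01, and Ankrd1, an ankyrin-repeat protein of stressed heart muscle, by 1.07. Dck, the deoxycytidine kinase of nucleotide salvage, differed by 1.24, the epidermal lipoxygenase Alox12b by 0.94, the sodium-phosphate cotransporter Slc34a2 by 0.98, and the receptor-signalling inhibitor Spry2 by 0.98. Of these 12 genes 11 had a strain mean below 0, the side on which the B6 ratios were compressed. Against the 4 female BXD pairs in the same run of consecutive accessions, which holds no male BXD array, all 12 were higher in B6. The B6 mean was outside the range of these females for 11 of the 12, with Slc46a2 at 1.44 and Ptx3 at 1.14. Fmo2, described below, differed by only 0.10, inside their range of -1.09 to -0.24. Of the 341 features outside on the high side, 323 kept their sign there. The B6 value that chose these genes also enters this comparison, so it is not a separate check. On the labelled male direct pair Slc46a2 read -0.15, Ptx3 -0.17 and Dck -0.02, so these did not show a higher level in B6 than in D2.

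Fmo2 and Sult1d1 were the genes that also stood higher in B6 on all 3 labelled male direct arrays. Fmo2 encodes a flavin monooxygenase. It read -0.46 and -0.49 in B6 and only -1.76 to -1.26 in the strains, whose SD was 0.16. The difference was 1.04 ± 0.17, 2.06-fold, and missed the threshold (adjusted p = 0.056, limma with Benjamini-Hochberg adjustment). It passed with arrays centred on their medians (limma adjusted p = 0.0494) and without BXD19 (limma adjusted p = 0.0402). The difference was -0.00398 against female strain means. Female strains ranged from -1.33 to 0.29 for Fmo2. The direct ratios were 0.67, 0.71 and 0.89 on the labelled male arrays. Sult1d1, a sulfotransferase of catecholamines, was the only one of the 12 with more transcript in liver than in the embryo mix. It read 3.21 and 3.34 in B6 and 1.70 to 2.86 in the strains, a difference of 0.92 ± 0.34. Its direct ratios were 1.11, 1.12 and 1.31 on the labelled male arrays and -0.53, -0.35 and -0.60 on the labelled female arrays.

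On the low side most named genes had more signal in liver than in the embryo mix, all but Gpc3 and Tsc22d1 having a strain mean above 0. None passed the adjusted test (limma adjusted p = 0.2871 to 0.9428). An unadjusted limma p under 0.05 was seen for 9 of the 12 and for 6.03% of all features. The genes were chosen on these same values, so the unadjusted p-values add no evidence. Elovl3, the elongase of very long chain fatty acids, which is known for its male bias and daily rhythm in liver, had the largest difference at -2.19 ± 0.95. B6 read 0.45 and 1.08, while the strains spread from 1.21 in BXD18 to 4.61 in BXD21 with a median of 2.88. The lowest strain was close to B6, and the female strains ranged from -0.32 to 1.26. The labelled male direct ratios of Elovl3 were small, at -0.15, -0.39 and -0.64. Against the same-run females the difference was 0.03, and against female strain means it was 0.33.

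Atf5, a bZIP transcription factor of stress responses, was the low gene with the largest direct ratios on the labelled male arrays. It read 0.24 and 0.70 in B6 and 1.15 to 2.88 in the strains, a difference of -1.34 ± 0.51. Its direct ratios were -0.98, -1.14 and -1.19 on the labelled male arrays and -0.72, -1.03 and -0.91 on the labelled female arrays. Clpx, the unfoldase of a mitochondrial protease, read 1.08 and 1.17 against 1.25 to 2.70. B3galt1, a galactosyltransferase, read 0.69 and 1.07 against 1.26 to 2.72. Their direct ratios were below 0 on all 3 labelled male arrays, with pair means of -0.26 and -0.16. Against the same-run females the B3galt1 difference was 0.05.

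Smaller differences followed. Bco1, which cleaves beta-carotene to retinal, read -0.12 and 0.60 against 0.34 to 1.87, and Lrat, which esterifies retinol in stellate cells, read 0.05 and 0.15 against 0.46 to 1.30. For Lrat the direct ratios went the other way, at 0.21, 0.46 and 0.41. Irf9, the DNA-binding subunit of the interferon-activated factor, read 0.34 and 0.46 against 0.56 to 1.80. Its direct ratios were -0.18, -0.31 and -0.29.

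Agxt, which detoxifies glyoxylate in hepatocytes, had a B6 mean of 3.45 against 3.92 to 4.57, and Pigr, the transporter of IgA into bile, 3.08 and 3.90 against 3.87 to 4.53. Differences were -0.79 ± 0.19 and -0.72 ± 0.19, but they turned to 0.286 and 0.404 when arrays were scaled to a common median absolute deviation. The fetal glypican Gpc3 read -3.93 and -3.77 against -3.53 to -2.82, the opposite side from most embryo-rich genes, and differed by -0.06 from the same-run females. Tsc22d1, a leucine-zipper protein, read -2.31 and -2.24 against -2.12 to -0.67. The remaining gene, the testis dynein light chain Tcte3, had B6 orientations far apart, at -2.42 and -0.47, against -0.71 to 1.08 in the strains. Against the same-run females 10 of the 12 low genes kept their direction, as did 172 of the 183 features outside on the low side. Across the low side 6 of the 12 genes were below 0 on all 3 labelled male direct arrays, as were 13.2% of all features. The ratios were mostly small: on the labelled male pair 10 of the 12 were under 0.3 log2 in size and 1 reached 0.5.

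**Figure D4:**
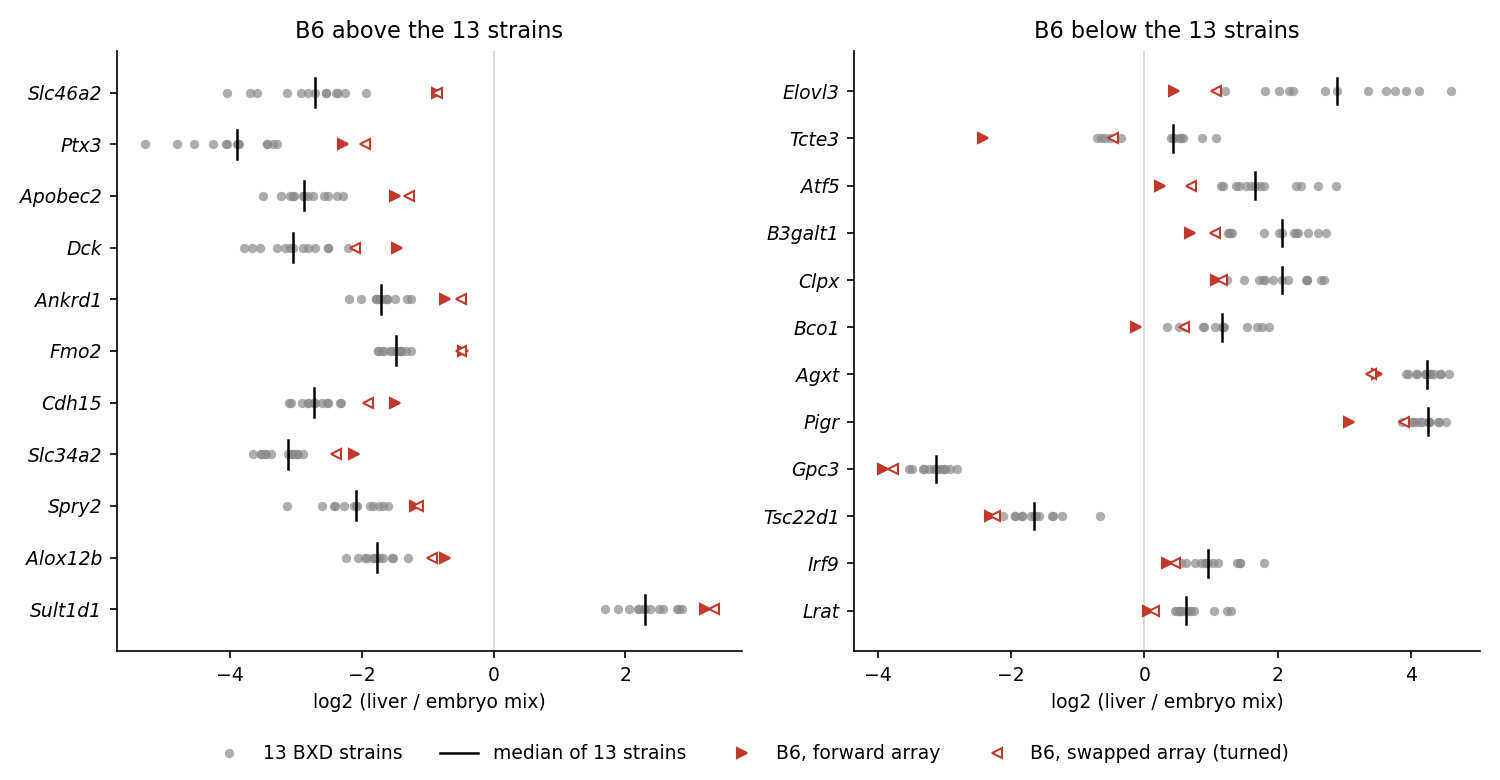
Log2 ratio to the embryo mix of 11 named genes above and 12 below the strain range (grey points, means of the 13 BXD strains; black bar, their median; red triangles, B6 on its forward and swapped arrays). On the left all but Sult1d1 lie below 0, and on the right Elovl3 shows the widest spread of strains, from 1.21 to 4.61.

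Genes were then read by pathway. Sex-dependent genes mostly lay inside the male strain range in B6, with a few exceptions. Of 7 male-biased genes 1 was outside the range in both orientations (Elovl3), and the median difference was -0.31 against -0.02 over all features. It was 0.36 with median absolute deviation scaling. Cyp7b1 was below all 13 strains as a mean, at 3.88 against 4.20 to 4.83, but far above the female strains (0.98 to 3.28). Cyp2d9 (4.04) and Cyp2f2 (3.86) were inside the range. Of 12 female-biased genes only Fmo2 was outside in both orientations. Fmo1 was just above the strains, at 1.72 against 0.28 to 1.66, and its labelled male direct ratios were 1.70, 1.23 and 0.94.

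Among 16 drug and steroid enzymes Sult1d1 alone was outside in both orientations, and the median difference was 0.03. Among 9 bile acid genes none was. Abcc2, the canalicular exporter of conjugates, was above the strains as a mean (2.70 against 1.94 to 2.66), and Slc10a1, the bile salt uptake carrier, below them (0.33 against 0.45 to 1.44). None of the 9 clock genes was outside in both orientations. Per2, a period gene of the circadian clock, was above all strains as a mean at 0.26 against -2.65 to 0.23. Its B6 orientations were 0.59 and -0.07, and the strains covered nearly 3 log2 units, with no direct difference to match (-0.09 on the labelled male pair).

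In fuel and amino acid metabolism few genes lay at the edge. Oat, the ornithine aminotransferase, had a mean of 2.03 against 0.89 to 1.94 and read 0.91, 0.69 and 1.01 on the labelled male direct arrays, but -0.06 on the labelled female pair. None of the fatty acid oxidation (7 measured), glucose (9) or fatty acid synthesis (4) genes was outside in both orientations. Of 7 urea and amino acid genes Agxt was.

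Of 24 genes of interferon responses and antigen presentation none was outside the range in both orientations, and 3 were below all strains as a mean (Iigp1, Psmb9 and Tap1). The median difference was -0.07, and 0.13 with median absolute deviation scaling. The lowest was Iigp1, an interferon-induced GTPase, at 0.92 and 1.46 in B6 against 1.83 to 3.42, a difference of -1.23 ± 0.43. The immunoproteasome subunit gene Psmb9 was at 0.65 against 0.89 to 2.36. Their labelled male direct pair means were 0.15 and -0.61, and the labelled female pair read -0.44 for Iigp1. Among 8 genes known to carry B6 or D2 variants, such as Alad (0.64 against -0.03 to 2.75) and Apoa2 (3.73 against 2.78 to 3.87), B6 was inside the range in all. Alad encodes a heme synthesis enzyme and Apoa2 an apolipoprotein of HDL.

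Cell division genes lay high in B6 before rescaling, as embryo-rich features did in general. All 9 cell division genes were in the upper ranks (8 or above of 14, as for 45.4% of all features), 5 were above all strains as a mean, and Mcm2, a replication helicase subunit, was outside in both orientations. Top2a, the topoisomerase of dividing cells, read -1.64 and -1.11 against -3.07 to -1.88. The median difference of the 9 was 0.42 and became -0.02 with median absolute deviation scaling, 0.13 with quantile normalization and 0.13 with slope scaling. Markers of other cells were mixed. Above all strains as means were 2 of 3 neutrophil, 2 of 5 stellate and fibroblast, 2 of 6 red cell and 2 of 5 kidney, fat and muscle genes, and the stellate gene Lrat was below them. The largest of these were the neutrophil gene Ngp (-1.33 against -3.80 to -1.81), the fat gene Cfd (-1.27 against -3.12 to -1.90), the collagen gene Col1a2 (-0.94 against -2.32 to -1.30) and the red cell gene Ermap (-1.24 against -2.36 to -1.81). Median differences of these 4 lists were 0.41, 0.28, 0.12 and 0.08, in that order. With median absolute deviation scaling these medians were 0.12, -0.11, 0.16 and -0.01. Of all features, 8.84% were above all strains as means. Of 5 macrophage, 6 lymphocyte and 5 endothelial genes none was beyond the strains as a mean, and their medians were -0.11, -0.04 and 0.01. In bulk liver, fewer cells of a type and less RNA per cell cannot be told apart. The part of cell makeup in these differences was not tested.

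Ribosomal protein genes lay on the other side. Of 7 measured none was in the upper ranks, and the median difference was -0.36, and -0.74, -0.68 and -0.61 with median absolute deviation, quantile and slope scaling. Rpl27 read -1.29 and -1.16 against -1.18 to -0.54, and Rps7 -2.14 and -1.73 against -1.90 to -1.04. None was outside in both orientations, and their direct ratios had a median of -0.02.

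The remaining lists held few genes beyond the strains. Of 4 heme genes Fech, the ferrochelatase, was outside in both orientations when compared by orientation. It read 0.75 and 0.34, and the strain means over orientations were -0.36 to 0.50. None was outside in both orientations among 9 stress and chaperone, 7 methionine cycle, 8 respiratory chain and 4 cholesterol synthesis genes. Of 15 hepatocyte genes Agxt was outside, and of 13 embryonic genes Gpc3. Cdkn1c, an imprinted inhibitor of cell division, was above the strains as a mean (-2.78 against -4.08 to -3.31).

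The direct arrays gave the parental difference itself. The limma fit pooled labelled male and labelled female arrays into 4 values with a dye term. It called no feature, with 570 at an unadjusted p under 0.05. On the labelled male values alone it also called none, with 1261 at an unadjusted p under 0.05. Without the dye term 39 were called. The forward and turned swapped arrays of the labelled male pair correlated at -0.019 across features, which are not independent replicates, so most small ratios were not shared by the orientations. A plain description was used instead, chosen after the values were seen: at least 0.7 log2 in the same direction on all 3 labelled male arrays. It held for 137 features (0.625%), 77 higher and 60 lower in B6, and for 38 named genes, 22 higher and 16 lower. B6 was on the side of the strain median that the direct arrays give for 103 of the 137 features (75.2%), for 27 of the 38 genes and for 54.4% of all features. With the direct arrays turned the counts were 34 and 11, which are only the remainder and add no information. B6 was outside the strains in both orientations for 13 of the 137, and for 2 of the named genes, Atf5 and Sult1d1. The median SD over strains was 0.50 for the 137 features and 0.19 over all. On the labelled female arrays 97 of the 137 had the same sign on all 3 and 19 the opposite sign on all 3. A single further array compared enriched RNA of male B6 and D2 liver, with the kind of enrichment not stated in the labels. It had the same sign for 113 of the 137 features and for 29 of the 38 genes, 17 of them by at least 0.7. The share over all features is not given for the labelled female and enriched counts, so nothing is read from them.

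Subtracting the direct difference of the labelled male pair from the B6 level gives a computed D2 level on the scale of the embryo mix. For 24 of the 38 genes this computed level was beyond all 13 strains, as for 20.7% of all features. Choosing genes by large direct ratios moves the computed level outward, so nothing is read from the count. With the direct arrays turned it was 33 of the 38 and 25.2% of all. The acute-phase plasma proteins Saa3, Apcs, Serpina3n and Orm1 had the lowest pair ratios of the 38 genes. Such proteins are secreted by hepatocytes in response to cytokines such as interleukin-6 and interleukin-1, acting through STAT3 and C/EBP factors.

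Saa3, a serum amyloid A gene, was 14.1-fold lower in B6 than in D2 on the labelled male pair. The ratios were -3.82, -3.82 and -3.78 on the labelled male arrays, but 0.18, -0.08 and -0.35 on the labelled female arrays. B6 read 1.06 and 1.29 against the embryo mix, close to the strain median of 1.04, and 12 of the 13 strains were nearer to B6 than to the computed D2 level of 4.99. The exception was BXD28 at 3.98, with BXD18 next at 2.53. BXD28 was also the strain with the lowest correlation between its orientations, and the part of this in its Saa3 and Apcs levels was not tested. Apcs, the serum amyloid P component and the mouse acute-phase pentraxin, was 11.2-fold lower in B6, with ratios of -3.40, -3.58 and -3.27 on the labelled male and -2.70, -3.04 and -2.92 on the labelled female arrays. B6 read 1.62 and 1.66, and the strains covered 0.70 to 4.74, with BXD28 (4.74) and BXD11 (3.99) nearer to the computed D2 level of 5.13. Apcs was thus below 0 on all arrays of both kinds, and Saa3 only on all the labelled male ones. By most sex-dependent genes the labelled female arrays read like male B6 against female D2. Sex and strain cannot be told apart on them. The strain median was 2.26 in males and 3.28 in females for Apcs, and 1.04 and 1.32 for Saa3.

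The 250 bases before the start of these 2 genes are shown because both genes stood farthest apart between B6 and D2 and because the acute-phase factors named above have known sequence preferences. Capitals mark TTNNGCAA, a C/EBP-like motif, and TTCNNGGAA, a STAT-like motif, searched on both strands, and these do not overlap here. The sequences are RefSeq's for GRCm38.p6, the reference genome of B6, so they do not show the D2 allele. Saa3 lies at chr7:46715677-46715926 on the minus strand and Apcs at chr1:172895055-172895304 on the minus strand, and 5 of the 9 measured acute-phase genes had an entry.
Saa3: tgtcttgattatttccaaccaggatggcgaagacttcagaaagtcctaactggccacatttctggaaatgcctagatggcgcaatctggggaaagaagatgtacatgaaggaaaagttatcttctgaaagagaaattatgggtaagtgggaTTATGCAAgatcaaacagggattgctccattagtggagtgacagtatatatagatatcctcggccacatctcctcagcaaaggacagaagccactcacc
Apcs: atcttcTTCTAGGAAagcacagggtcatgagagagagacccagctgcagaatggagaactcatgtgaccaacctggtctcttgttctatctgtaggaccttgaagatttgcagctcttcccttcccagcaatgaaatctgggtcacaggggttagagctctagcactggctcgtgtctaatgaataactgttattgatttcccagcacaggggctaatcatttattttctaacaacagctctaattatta
The first motif is in 9.56% and the second in 4.06% of 32851 such windows, and a match is only a description of these letters.

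Other plasma proteins followed Saa3 in size order. Serpina3n, a protease inhibitor, had a mean of -1.76 on the labelled male pair and -1.93 on the other labelled male array, with -0.56, -0.78 and -0.94 on the labelled female arrays. Its B6 values of 2.29 and 2.55 were inside the strain range of 1.48 to 2.83, while the computed D2 level was 4.18. Orm1, the alpha-1 acid glycoprotein gene, had -1.52, -1.66 and -1.60, and on the labelled female arrays 0.51, 0.12 and 0.25. B6 was at 3.41, strains at 3.23 to 4.36 and the computed D2 level at 5.01. Lbp, the lipopolysaccharide-binding protein gene, Fgl1, a fibrinogen-like secreted protein gene, and Pzp, an alpha-2-macroglobulin family gene, had computed D2 levels of 3.05, 5.21 and 4.27, above strain maxima of 2.21, 4.46 and 3.75. For Serpina3n, Lbp, Fgl1 and Pzp all 13 strains were nearer to B6. The enriched male array did not show differences of this size except for Apcs, at -1.94. It read 0.36 for Saa3, 0.61 for Fgl1, -0.37 for Serpina3n, -0.35 for Pzp, -0.27 for Lbp and -0.10 for Orm1. In all 7 genes the computed D2 level was above every strain, as it was beyond the strains for 20.7% of all features. These genes were chosen by the direct ratios that enter this level, so nothing is read from its place. The B6 mean was inside the strain range in all 7. Over the 9 measured acute-phase genes the median difference of B6 from the strains was -0.04, with none outside in both orientations, and the labelled male pair had a median of -1.13. The median difference from the strains became 0.76 with median absolute deviation scaling. For Hp, Saa4 and Cp, which did not reach 0.7 on all 3 labelled male arrays, that pair read -0.30, 0.01 and -0.60.

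A smaller number of genes had strains at both parental levels. Xdh, the xanthine oxidoreductase gene of purine breakdown, had direct ratios of 1.84, 1.76 and 1.25 on the labelled male arrays and 1.91, 1.45 and 2.30 on the labelled female arrays. B6 read 2.17 and 2.18, and the computed D2 level was 0.37. The strains split into 7 at 0.41 to 0.80 and 6 at 1.63 to 2.26, so that each set lay beside one parent. Plekhb1, a pleckstrin-homology protein gene, had ratios of 1.68, 1.68 and 1.51. B6 was at 1.37 and the computed D2 level at -0.31, with 7 strains nearer to B6, 6 nearer to the D2 level and a range of -0.59 to 2.12. BXD5 (0.29), BXD11 (0.73) and BXD31 (0.98) lay between these levels. The widest gap, from 1.48 to 2.02, had 11 strains below it, so the strains were not split as for Xdh.

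Mga, a MAX-binding transcription factor gene, read -0.81 and -1.12 in B6 with a computed D2 level of -2.09. Of the strains 10 lay between -2.04 and -1.34 and 3 between -0.83 and -0.75. Guk1, the guanylate kinase gene, was at 0.26 in B6 with a D2 level of -0.89, and 3 strains lay at 0.19 to 0.51 and 10 at -0.67 to -0.17. Tpmt, the thiopurine methyltransferase gene, was lower in B6, with direct ratios of -0.90, -1.32 and -1.56 on the labelled male and -1.16, -1.48 and -1.37 on the labelled female arrays. B6 was at 1.54 and the D2 level at 2.64, and 10 of the 13 strains were nearer to the D2 level. Cela1, an elastase gene, had direct ratios of -1.27, -1.16 and -1.31, with B6 at -1.12, BXD18 at -1.25 and 11 strains nearer to the D2 level of 0.09. Splits between strains were placed at their widest gap or at the midpoint of the parents after the values were seen, and carry no test.

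Several metabolic enzymes also had large direct ratios. Lpin1, the phosphatidate phosphatase and coactivator gene, had ratios of 2.37, 2.43 and 2.45 on the labelled male and 2.03, 1.98 and 2.15 on the labelled female arrays, 5.29-fold on the labelled male pair. B6 was at 2.77 and the computed D2 level of 0.37 was below all strains (1.18 to 3.30), 12 of which were nearer to B6. Aldh3a2, the fatty aldehyde dehydrogenase gene, had 1.85, 1.38 and 0.92, and Akr1c14, a hydroxysteroid dehydrogenase gene, 1.47, 1.39 and 1.35. Adh1, the class I alcohol dehydrogenase gene, had 1.16, 0.89 and 0.90, with 6 strains nearer to B6 at 3.63 and 7 nearer to the D2 level of 2.60. Hpgd, which inactivates prostaglandins, had 1.26, 1.28 and 1.35 on the labelled male arrays, but -0.01, -0.25 and -0.21 on the labelled female arrays. For Hpgd 7 of the 13 strains were nearer to the computed D2 level of 1.05 than to B6 at 2.33, and the lowest strain was at 0.24.

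For Atf5 all 13 strains were nearer to the computed D2 level of 1.53, and B6 at 0.47 was below every strain. For Pdia4, a disulfide isomerase gene of the endoplasmic reticulum, direct ratios were -0.84, -0.87 and -0.83 on the labelled male and -0.72, -0.69 and -0.87 on the labelled female arrays. B6 was at 0.14, and strains ranged from -0.12 to 2.03, with 6 nearer to B6, 7 nearer to the computed D2 level of 0.99 and 5 of these at 1.21 or above. For Sult1d1 the computed D2 level was 2.16 and 10 of the 13 strains were nearer to it than to B6.

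**Figure D5:**
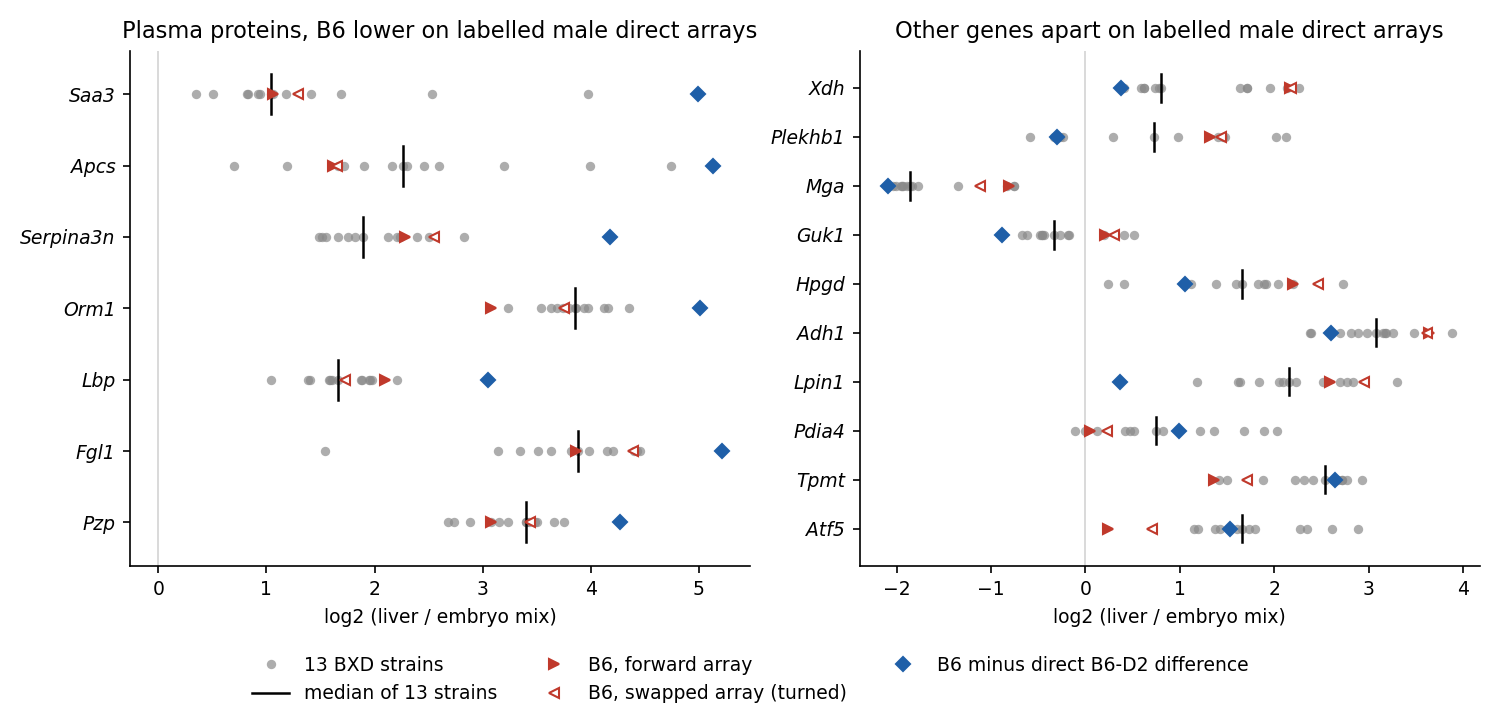
Log2 ratio to the embryo mix in B6 (red triangles), the 13 BXD strains (grey points, black bar at their median) and the computed D2 level (blue diamond, B6 minus the difference on the labelled male replicate 1 pair). On the left the diamonds of all 7 plasma proteins lie above every strain, from 3.05 for Lbp to 5.21 for Fgl1. Genes were chosen by large direct ratios, which moves the diamonds outward. On the right the strains of Xdh lie in a set beside the diamond and a set beside B6.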

How the data were processed

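Liver RNA was hybridised on two-colour arrays of 21936 probes, and the series holds 82 arrays. The deposited table gives 1 value per probe and array and is read as a log10 ratio, since values stop at 2 above and below 0 (94 lie there). The base is not stated in the labels, with the authors' scanner, software and normalization not given in the sources used here. Deposited log10 values were multiplied to log2, so every log2 value and fold rests on that reading. The likely direction, channel 2 over channel 1, comes from hepatocyte genes exceeding embryonic genes on 74 of 74 arrays. For the direct arrays it is taken over from these.

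Names came from the platform annotation (3290 probes) and RefSeq accessions (170, GRCm38.p6), 18476 probes had no single symbol, and probes of a symbol were averaged. B6 was tested against 13 strain means with limma 3.58.1 in R 4.3.3 (lmFit, eBayes), Benjamini-Hochberg at 0.05 over all features, on code tested on simulated data. The number of arrays limits precision. Nothing says that arrays came from separate RNA extracts, so p-values measure the spread between these samples.

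Named genes are, per direction, the 12 largest differences among called genes with the same sign in both orientations, filled from those outside the strain range in both orientations, besides members of 33 gene lists. Members and lists were chosen with earlier results of these data known. Alternatives covered scaling, orientation, sex, strain sets, a run of accessions, single probes and limma settings. Strains with forward arrays only entered an alternative alone. The minimum of 0.7 for the direct arrays was chosen after the values were seen. Values of some genes that the rule or the lists take in are not reported here.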

Additional observations from a re-analysis of the deposited data

Results flagged for a closer look

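The labelled male and labelled female direct arrays read in opposite directions on every array for 12 of the genes described, a difference that was not tested. The labelled female arrays carry the sex-linked pattern given above beside each of these values. On the labelled male pair the log2 ratio of B6 to D2 was 1.46 for Fmo1, 1.27 for Hpgd, 1.12 for Sult1d1 and 0.993 for Nr1i3, the constitutive androstane receptor gene, and on the labelled female pair -1.16, -0.128, -0.442 and -0.417. It was -1.59 for Orm1 and -0.891 for Ldha, the lactate dehydrogenase A gene, with 0.311 and 0.261 on the labelled female pair. Elovl3 had -0.271 and 0.796, B3galt1 -0.159 and 0.679, and Spry2 -0.0173 and 0.272. The others were Oat with 0.801 and -0.0624, Iigp1 with 0.152 and -0.436, and Reg1 with -0.106 and 0.124. The B6 and direct groups held at most 3 arrays each, too few to set a single array against the rest of its group.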

How the results depend on the processing

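The count of called features was 4 and stayed between 3 and 6 with centring, forward arrays only (13 or 17 strains), both sexes, sex and run terms, trend or robust variance, BXD6 replicate 1 alone, or single probes. It was 14 with median absolute deviation scaling, 11 with quantile normalization, 2 with swapped arrays only, 12 against female strain means and 1 to 10 with a strain left out (1 without BXD5, 10 without BXD32). Alternatives chosen after seeing the data gave 9 with slope scaling and 1 without BXD15, BXD21, BXD28 and BXD32. The count outside the strain range was 524 to 641 under all scalings and 542 to 1065 with a strain left out. It was 931 without those 4 strains, where fewer strains make a narrower range. The direct fit called 0 features, also when centred or on labelled male values alone (1261 at an unadjusted p under 0.05), 39 without the dye term and 3 with the enriched arrays. The 4 called features kept their sign in 50% of cases on the labelled female arrays and in 100% on the labelled male pair. For the 24 named genes 642 of 648 alternative values kept their direction and side of the threshold. Fmo2 (-0.00398) and Elovl3 (0.33) turned against female means, and Agxt (0.286) and Pigr (0.404) under median absolute deviation scaling. Fmo2 passed the threshold with centring and without BXD19. The cause was not tested. No paired analysis was possible because the B6 arrays against the embryo mix carry replicate number 1 only. Signal over background was not analysed here, and B6 is 1 RNA sample.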
